A study of Homo sapiens with 20 samples.

Results

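The genes described here are EGR1, EGR2, EGR3 and EGR4, the 4 members of the early growth response family of zinc finger transcription factors, and NAB2, a corepressor that binds EGR proteins. They are 5 of the 19962 genes in the deposited count table, taken by their gene identifiers ENSG00000120738, ENSG00000122877, ENSG00000179388, ENSG00000135625 and ENSG00000166886. The set was selected on measured values, chosen by the level of EGR1, which was lower after 1 h of tunicamycin and higher under arsenite, so the values of those comparisons are given as a description, with no test.

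EGR genes are immediate early genes: their transcription starts within minutes of a stimulus without new protein synthesis, through serum response factor and ERK-activated ternary complex factors at CArG boxes and through CREB at cAMP response elements. EGR1, EGR2 and EGR3 recruit NAB1 or NAB2, which repress EGR target genes. NAB2 is itself a known EGR target, so the pair is taught as a negative feedback loop. Their mRNAs are short-lived, and IGF2BP3, an RNA-binding protein with KH and RRM domains, is known for binding and stabilising mRNAs in the cytoplasm and for its high level in many tumours.

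IGF2BP3 was mapped by PAR-CLIP, in which cells take up 4-thiouridine, UV light cross-links protein to RNA, and cross-linked thiouridines are read as T-to-C conversions. The cell line was HCT116, from a human colorectal carcinoma, with the genotype Tet-OsTIR1-PURO, which expresses the plant F-box protein OsTIR1 under tetracycline control, and every culture received 4-thiouridine at 100 µM for 15 h. There were 5 conditions: PBS for 2 h, 250 µM sodium arsenate for 2 h (the titles of these samples say arsenite, the name used here), DMSO for 4 h, and tunicamycin, an inhibitor of N-glycosylation that causes endoplasmic reticulum stress, at 5 µg/mL for 1 h (TM 1 h) or 4 h (TM 4 h). Each condition had 3 libraries with anti-IGF2BP3 antibody and 1 with control IgG. The labels do not say whether replicates came from separate cultures, so p-values measure only the spread between these libraries, which may be technical. The PBS and arsenite libraries carry 1 library-set name, replicates 1 and 2 of the DMSO and tunicamycin groups another, and replicate 3 of those groups a further one.

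The anti-IGF2BP3 libraries held 130478 to 1568406 gene counts and the IgG libraries 5981 to 17503. DMSO replicate 3 stood apart for the EGR genes: its EGR1, EGR2, EGR3 and EGR4 levels were 1.77, 2.06, 2.93 and 1.42 times the mean of the other DMSO libraries, against 1.18 for NAB2. Results that use DMSO are therefore also given without it. Of 7 colorectal epithelial markers, 5 had reads in clusters, and VIL1 and CEACAM5 had none; 0 of 3 leukocyte, 0 of 4 fibroblast and 0 of 2 endothelial markers had any. Counts in PAR-CLIP follow both how much of an RNA the cells hold and how much of it the protein holds, and without an RNA measurement these cannot be told apart, nor can fewer cells and less RNA per cell.

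The promoters of the genes are shown as background, and no link between their motifs and the counts was tested. Each line gives the 150 bases before an annotated start in RefSeq, assembly GRCh38.p14, read 5′ to 3′ on the gene's strand, with CArG boxes (searched by name, the serum response factor site), CGTCA (a cAMP response element half-site) and GCGNGGGCG (the EGR consensus) in capitals on either strand. RefSeq promoters were matched for 4 of the 5 genes.
EGR1: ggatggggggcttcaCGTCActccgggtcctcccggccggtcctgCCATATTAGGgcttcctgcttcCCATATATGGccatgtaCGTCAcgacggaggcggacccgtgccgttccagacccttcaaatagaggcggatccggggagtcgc
EGR2: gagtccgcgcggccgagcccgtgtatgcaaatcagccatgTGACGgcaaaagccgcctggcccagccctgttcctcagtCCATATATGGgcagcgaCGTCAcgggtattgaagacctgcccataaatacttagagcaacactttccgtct
EGR4: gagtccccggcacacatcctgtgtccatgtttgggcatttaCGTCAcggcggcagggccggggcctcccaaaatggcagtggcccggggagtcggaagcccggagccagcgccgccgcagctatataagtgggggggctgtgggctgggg
NAB2: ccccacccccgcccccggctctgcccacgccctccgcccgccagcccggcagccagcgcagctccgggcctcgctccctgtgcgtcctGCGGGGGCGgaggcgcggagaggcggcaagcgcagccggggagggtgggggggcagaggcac
These windows are chr5:138465329-138465478 on the plus strand for EGR1, chr10:62816367-62816516 on the minus strand for EGR2, chr2:73293549-73293698 on the minus strand for EGR4 and chr12:57088964-57089113 on the plus strand for NAB2. EGR1 held 2 CArG boxes, CCATATTAGG from 105 to 96 bases and CCATATATGG from 83 to 74 bases before the start, and EGR2 held 1, CCATATATGG, from 71 to 62 bases before this start; the windows of the other 2 EGR2 starts held none. Over the 250 bases before each of 35116 RefSeq starts, 1.16% held a CArG box, 21.2% held CGTCA and 8.41% held GCGNGGGCG. CGTCA occurred 2 times each in EGR1, at this EGR2 start and in EGR4, in EGR4 at 177 and 109 bases before the start. GCGNGGGCG occurred at 62 bases before the NAB2 start and at 198 bases before that of EGR1, outside the stretch shown. No motif overlapped another. A match is a description of letters, not a site in use.

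EGR1, the best studied member, was the gene on which the set was chosen. Its level, in CPM (counts scaled to library size, here with edgeR's TMM factors), was 622, 1057 and 973 in PBS and 11877, 11466 and 11591 in arsenite. It was 1353, 1221 and 2278 in DMSO, 625, 520 and 917 at TM 1 h, and 1099, 1490 and 958 at TM 4 h. The arsenite libraries lay far above all others and close to each other, and every TM 1 h library lay below every DMSO library. Ordered by mean, EGR1 was 687 ± 206 CPM at TM 1 h, 884 ± 231 in PBS, 1182 ± 276 at TM 4 h, 1617 ± 576 in DMSO and 11645 ± 211 in arsenite (SD, n = 3 each). Neighbours in that order overlapped except DMSO and arsenite, whose means differed 7.20-fold.

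EGR2, a regulator of myelination and of T cell anergy, was near the lowest detectable level outside arsenite. Its levels were 4.88, 0 and 7.64 CPM in PBS, from 2, 0 and 3 counts, and 462, 548 and 371 CPM in arsenite. In DMSO they were 13.7, 12.8 and 27.4 CPM, at TM 1 h 0, 8.88 and 4.80, and at TM 4 h 8.99, 21.5 and 5.80. As for EGR1, arsenite was separate from everything else, and the TM 1 h libraries lay below the DMSO libraries. The order by mean was PBS, TM 1 h, TM 4 h, DMSO and arsenite, with overlapping ranges between all neighbours but the last pair.

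EGR3, which acts with EGR2 in lymphocytes and in muscle spindle development, had 17.1, 23.8 and 12.7 CPM in PBS and 1132, 1440 and 886 CPM in arsenite. Its levels were 27.4, 34.1 and 90.1 CPM in DMSO, 9.26, 15.5 and 24.0 at TM 1 h, and 18, 17.4 and 10.3 at TM 4 h. Here both tunicamycin groups lay wholly below DMSO, and replicate 3 of DMSO was the highest library outside arsenite. The order by mean was TM 4 h, TM 1 h, PBS, DMSO and arsenite; the lowest 3 overlapped, and PBS and DMSO did not.

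EGR4, the member that lacks a NAB-binding domain like that of EGR1, had 9.75, 15.9 and 5.10 CPM in PBS and 157, 159 and 165 CPM in arsenite. It had 19.2, 16.0 and 25.0 CPM in DMSO, 4.63, 6.66 and 11.5 at TM 1 h, and 15.7, 14.8 and 7.09 at TM 4 h. The order by mean was TM 1 h, PBS, TM 4 h, DMSO and arsenite, the same as for EGR1. TM 4 h and DMSO did not overlap, but only narrowly, at 15.7 against 16.0 CPM.

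NAB2, the corepressor, did not follow the EGR genes. Its levels were 75.6, 63.6 and 40.8 CPM in PBS, 43.1, 60.3 and 66.0 in arsenite, 57.6, 69.3 and 74.9 in DMSO, 102, 75.5 and 82.5 at TM 1 h, and 80.9, 67.1 and 67.6 at TM 4 h. Groups next to each other in the order of means overlapped, and the means ran from 56.5 ± 11.9 CPM in arsenite to 86.6 ± 13.6 at TM 1 h (SD, n = 3 each).

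**Figure D1:**
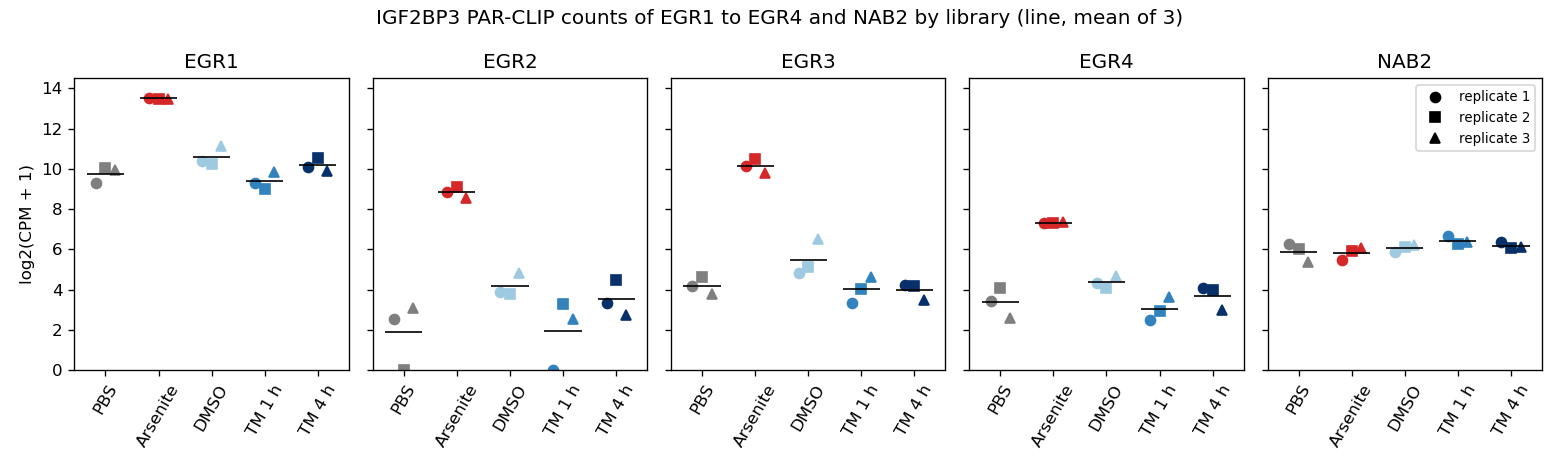
Levels of the 5 genes in each of the 15 anti-IGF2BP3 libraries, as log2(CPM + 1), with 1 panel per gene, symbols for replicates and a line at the mean of 3. Arsenite stands above every other group in the EGR panels, from 11466 to 11877 CPM for EGR1, while NAB2 stays between 40.8 and 102 CPM throughout.

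Under arsenite, all 4 EGR genes lay above PBS in every library, and NAB2 did not. Groups failed to overlap in this direction for 22.8% of the 6642 genes tested; since this contrast served to choose the genes, nothing is read from that count. The log2 fold change in the edgeR fit was 3.79 (SE 0.07) for EGR1, or 13.8-fold. For EGR2 it was 6.32 (SE 0.29) and for EGR3 6.11 (SE 0.20), the former resting on 5 counts over the 3 PBS libraries and the latter on 15. EGR4 had 4.19 (SE 0.33), resting on 8 counts over the PBS libraries, and NAB2 0.00 (SE 0.26). The SE by DESeq2 was larger for each gene: 0.23 for EGR1, 0.67 for EGR2, 0.40 for EGR3, 0.56 for EGR4 and 0.36 for NAB2. With so few PBS counts, EGR2, EGR3 and EGR4 passed the filter on low counts through arsenite.

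After 1 h of tunicamycin, the 4 EGR genes were lower than in DMSO without overlap, as were 7.74% of the 8343 genes tested, and this contrast too served to choose them. The DMSO libraries were treated for 4 h, so drug and time of treatment change together here and cannot be told apart. The log2 fold change was -1.19 (SE 0.13) for EGR1, or 0.438-fold, -1.87 (SE 0.54) for EGR2, -1.56 (SE 0.33) for EGR3 and -1.15 (SE 0.44) for EGR4, with NAB2 at 0.25 (SE 0.18). The NAB2 groups did not overlap either, in the other direction: its lowest TM 1 h library, at 75.5 CPM, lay just above its highest DMSO library, at 74.9 CPM, as did the TM 1 h libraries of 7.55% of genes. EGR2 and EGR4 rested on 9 and 16 counts over the TM 1 h libraries. DESeq2 gave larger SEs than edgeR, 0.35 for EGR1 and 0.48 for EGR3. Without DMSO replicate 3, EGR1 was at -0.82 and EGR3 at -0.70, and EGR2 and EGR4 no longer passed the filter on low counts. Within the library set of replicates 1 and 2, EGR1 was at -1.19 and EGR3 at -1.24.

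Between 1 and 4 h of tunicamycin, EGR1 alone of the 5 showed groups that did not overlap, with higher values at 4 h, as did 14% of genes. Its log2 fold change was 0.71 (SE 0.14, or 0.35 by DESeq2), given as a description because the TM 1 h libraries chose the gene. It was 1.23 within the set of replicates 1 and 2. EGR2 was at 1.02 (SE 0.60), EGR3 at -0.52 (SE 0.43), EGR4 at 0.23 (SE 0.49) and NAB2 at -0.25 (SE 0.18).

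The comparison of TM 4 h with DMSO did not serve to choose the genes, but it shares with one that did the DMSO libraries, in which a high EGR1 value favoured the choice. EGR1 is therefore described here without a test. Of the other genes, EGR3 was called lower and EGR2, EGR4 and NAB2 were not called. Over all genes, 5.11% of 8343 were called and 2.31% were called lower. The edgeR quasi-likelihood test put EGR3 at -2.08 on the log2 scale (SE 0.31), with an adjusted p of 1.9e-06. Its 3 TM 4 h libraries lay below all 3 DMSO libraries, as did those of EGR4 and of 10.2% of genes. For EGR4 the margin was small, 15.7 CPM in the highest TM 4 h library against 16.0 CPM in the lowest DMSO library. EGR1 stood at -0.49 (SE 0.12) in the edgeR fit and at -0.46 (SE 0.35) by DESeq2, and its groups overlapped. EGR2 was at -0.84 (edgeR adjusted p = 0.27), EGR4 at -0.92 (adjusted p = 0.16) and NAB2 at 0.00 (SE 0.22, adjusted p = 1.00). The EGR3 call rested on DMSO replicate 3: without it EGR3 was at -1.21 (edgeR adjusted p = 0.065), and EGR1 was at -0.12. Within the set of replicates 1 and 2, EGR1 was at 0.04 and EGR3 at -0.85 (edgeR adjusted p = 0.46). Without TM 4 h replicate 3, EGR1 was at -0.33.

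The vehicle groups are described without p-values, because both helped to choose EGR1: a high value in DMSO and a low one in PBS favoured the choice. All 3 DMSO libraries lay above all 3 PBS libraries for the 4 EGR genes, and not for NAB2. DMSO also lay wholly above PBS for 9.37% of the 6352 genes tested, which do not include EGR2 and EGR4. For EGR4 the margin was small: its lowest DMSO library, at 16.0 CPM, lay just above its highest PBS library, at 15.9 CPM. That PBS library held 2 EGR4 counts. EGR1 stood at 0.95 (SE 0.12, or 0.37 by DESeq2) on the log2 scale, EGR3 at 1.83 (SE 0.41) and NAB2 at 0.23 (SE 0.25). EGR3 had only 15 counts over the PBS libraries, and EGR2 and EGR4 did not pass the filter on low counts. The edgeR fit called EGR1 and EGR3, where 1.45% of 6352 genes were called and 0.504% were called higher, and DESeq2 did not call EGR1; nothing is read from these calls. Without DMSO replicate 3, EGR1 was at 0.60 and EGR3 at 0.96, and EGR3 was no longer called; it also lost its call without PBS replicate 1 or 3. Vehicle, time of treatment and library set change together between these groups and cannot be told apart.

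**Figure D2:**
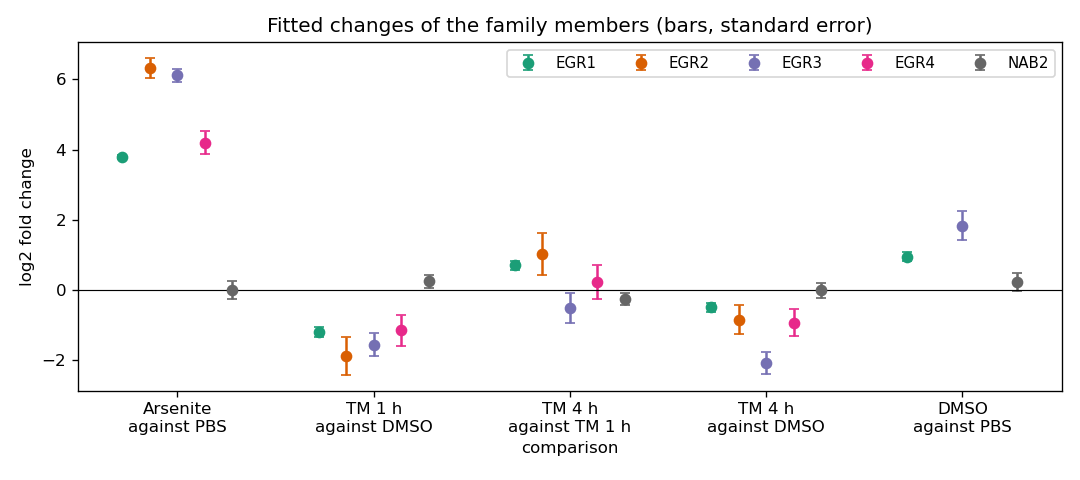
Fitted log2 fold changes of the 5 genes in 5 comparisons, with bars of 1 standard error from the edgeR fit. DESeq2 standard errors were larger for every gene and comparison shown. EGR2 and EGR4 have no point for DMSO against PBS because they did not pass the filter. The EGR genes sit between 3.79 and 6.32 under arsenite and between -1.87 and -1.15 at TM 1 h, while NAB2 stays between -0.25 and 0.25.

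The IgG libraries put a limit on reading EGR1 as IGF2BP3 binding. As a share of all gene counts, EGR1 took 1.1% to 1.13% in the arsenite anti-IGF2BP3 libraries and 0.577% in the arsenite IgG library (95% Wilson interval 0.442% to 0.751%). In PBS the IgG share was 0.0971% (0.0607% to 0.156%) against 0.0602% to 0.102% with the antibody. At TM 1 h it was 0.0669% (0.0260% to 0.172%) against 0.0503% to 0.0894%. In DMSO it was 0.318% (0.215% to 0.469%) against 0.119% to 0.220%, and at TM 4 h 0.459% (0.351% to 0.600%) against 0.0948% to 0.145%. Arsenite was thus the condition in which every antibody library lay above the IgG interval, and at TM 4 h every antibody library lay below it. The IgG libraries rest on 4 to 54 EGR1 counts each, and the intervals cover counting error only. The other 4 genes had 0 to 4 counts in each IgG library; for EGR4, 0 of 9366 counts under arsenite allows a share of up to 0.0320%.

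**Figure D3:**
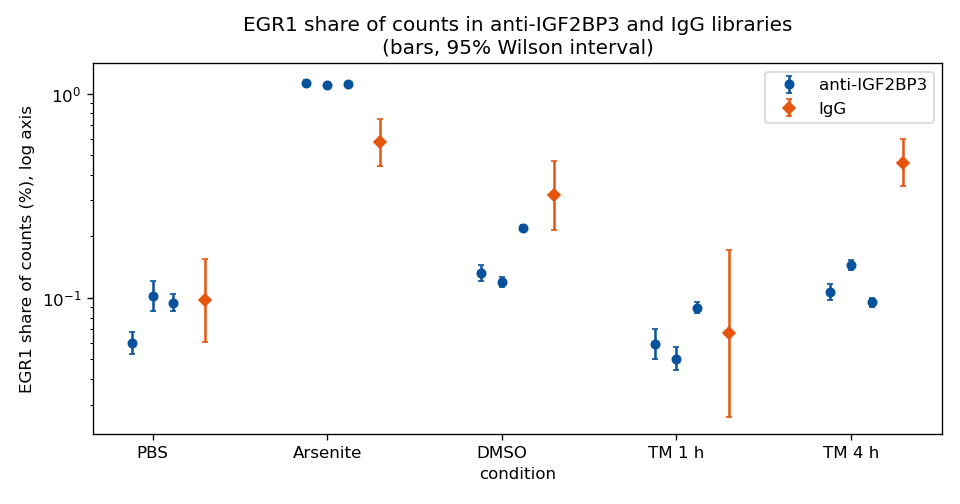
EGR1 share of gene counts on a log axis in the 3 anti-IGF2BP3 libraries (circles) and the IgG library (diamonds) of each condition, with 95% Wilson intervals. In arsenite the antibody libraries reach 1.1% to 1.13% over an IgG share of 0.577%, and at TM 4 h the IgG share of 0.459% is above all 3 antibody libraries.

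The authors' clusters, stretches of overlapping reads with T-to-C conversions, show where on each RNA the reads lay. EGR1 (chr5:138465479-138469303, plus strand) had 205 clusters with 31866 reads, found in 15 of 15 antibody libraries. EGR2 (chr10:62811996-62819167, minus strand) had 39 clusters with 761 reads in 6 libraries, EGR3 (chromosome 8, minus strand) 69 with 2043 reads in 5, EGR4 (chr2:73290929-73293548, minus strand) 8 with 364 reads in 7, and NAB2 (chr12:57089114-57095476, plus strand) 33 with 387 reads in 11. All 3 arsenite libraries had clusters on the 4 EGR genes. Outside arsenite, EGR2 had clusters in 1 DMSO and 2 TM 4 h libraries and EGR3 in 2 DMSO libraries. The share of conversion events over conversion and non-conversion events was 10.4% for EGR1, 11.9% for EGR2, 11.4% for EGR3, 16.8% for EGR4 and 8.67% for NAB2, against 7.58% to 8.81% over all clusters of each antibody library. Exon and untranslated region boundaries were not used here, so positions are given from the start of the gene.

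On EGR1, merging overlapping clusters of all antibody libraries left 4 sites, and 2 of them carried most reads. An upstream site from 1265 to 2625 bases after the gene start held 59.3% of cluster reads, and a downstream site from 2641 to 3809 held 36.2%. The upstream site is chr5:138466743-138468103 and the downstream site chr5:138468119-138469287. Of the reads in these 2 sites, the upstream site took 65.1% to 67.5% in the arsenite libraries, above the 51.8% to 60.0% of PBS, 52.1% to 56.4% of DMSO and 49.9% to 52.0% of TM 4 h. At TM 1 h the share ran from 35.1% to 65.2%, with only 74 reads in the 2 sites in replicate 1. Arsenite libraries also covered more of the gene with clusters, 2894 to 2924 bases against 363 to 1069 in PBS; clusters were called in each library separately, so coverage moves with the number of reads. In all 15 libraries the conversion share was higher at the upstream site (11.1% to 15.6%) than at the downstream site (5.97% to 8.10%). The upstream site had fewer T bases to convert, 18.6% against 33.9%, and was richer in G and C, 61.0% against 41.0%, as counted over the bases covered by the clusters of arsenite replicate 3.

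**Figure D4:**
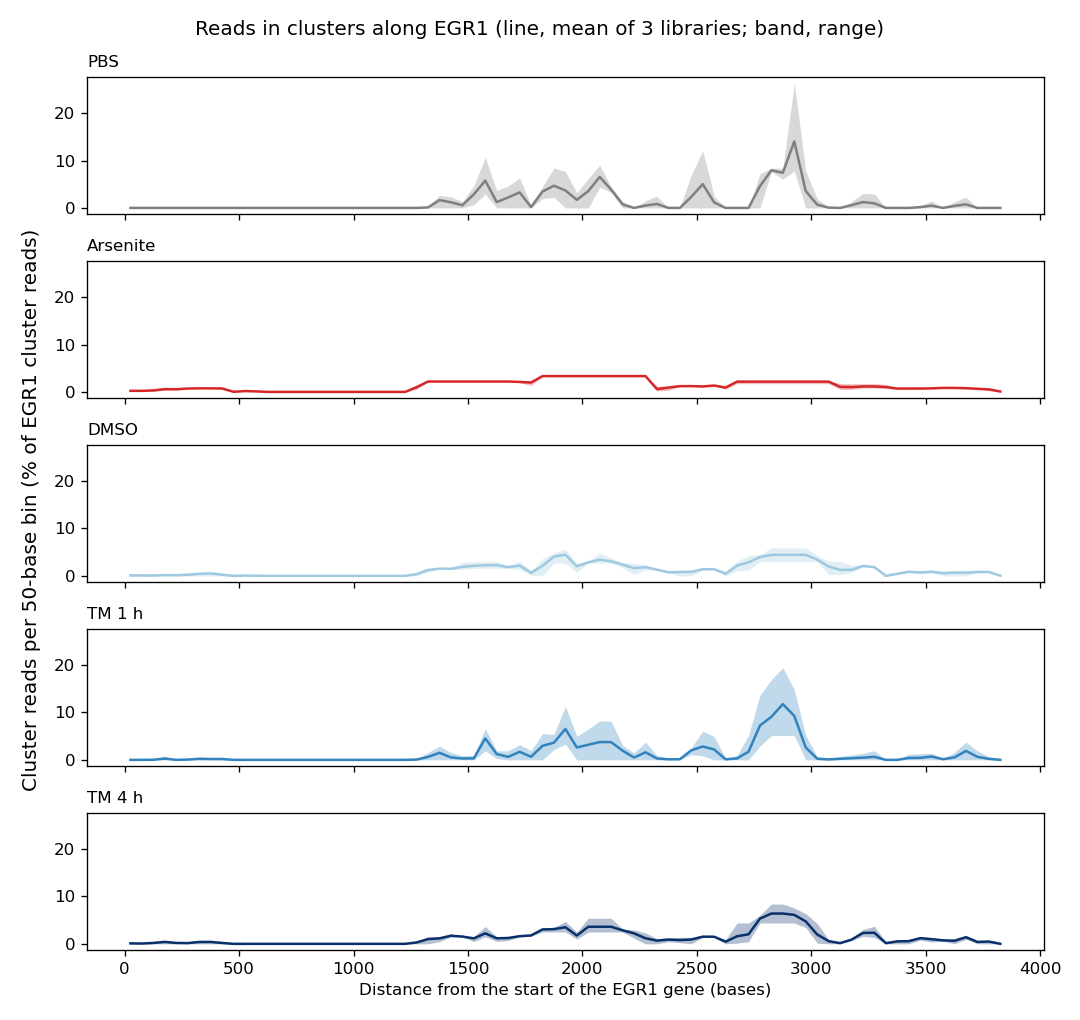
Reads in clusters along EGR1 in bins of 50 bases, as a percentage of that library's EGR1 cluster reads, against the distance from the gene start, with 1 panel per condition, a line at the mean of 3 libraries and a band for their range. Reads gather between 1265 and 2625 bases and between 2641 and 3809 bases in every condition. Of the reads in both stretches, the upstream one took 65.1% to 67.5% in arsenite, 51.8% to 60% in PBS and 35.1% to 65.2% at TM 1 h. EGR1 cluster reads numbered 22883 in arsenite, 574 in PBS and 1170 at TM 1 h, so evenness along the gene was not compared.

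A window of 30 bases around the authors' mode position in the cluster with most reads shows the contrast in base composition; capitals mark GGAC, the core of the m6A consensus, and CACA and CATT, elements described for IGF2BP proteins.
EGR1 upstream: aaccggcccagcaagacgcccccccacgaa
EGR1 downstream: agagacttaaaGGACaggaggaggagatgg
EGR2: acatccgaatcCACActgggcataagccct
NAB2: actcagtttGGACaagggggaaagggGGAC
The windows lie at chr5:138467425-138467454, chr5:138468125-138468154, chr10:62813530-62813559 and chr12:57095054-57095083, each on the strand of its gene. The upstream EGR1 window had 0 T bases and 70.0% G and C, the downstream one 3 T bases, and the NAB2 window 2 copies of GGAC. Over all clusters, the EGR genes were 54.8% to 63.7% G and C and NAB2 55.7%, against 42.9% in the clusters of all genes. CATT occurred 2.12 times per 1000 cluster bases in EGR1 against 8.54 in the clusters of all genes. NAB2 clusters held GGAC 11.9 times per 1000 bases, and 51.5% of them held it, against 2.43 times and 13.6% over all clusters. CACA occurred 16.0 times per 1000 bases in NAB2 clusters against 6.78. Clusters of the same gene overlap between libraries, so these shares describe a few stretches of RNA and carry no test.

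EGR2 reads lay from 4724 to 7085 bases after the start of its 7172-base gene, and its leading site, from 5609 to 5744, held 36.7% of its reads. EGR3 clusters were spread over 23 sites, the leading one with 24.5% of reads. NAB2 reads lay near its 3′ end only, from 5579 to 6307 of 6363 bases, in every library with a cluster; STAT6, on the other strand, overlaps the last 69 bases of NAB2 and 1 of its 33 clusters.

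EGR4 reads lay in 1 site of 59 bases, chr2:73291638-73291696 on the minus strand, and this stretch is nearly the same in EGR1. The 2 sequences are printed with matching bases in capitals, EGR1 from chr5:138467545-138467603 on the plus strand, inside its upstream site.
EGR4: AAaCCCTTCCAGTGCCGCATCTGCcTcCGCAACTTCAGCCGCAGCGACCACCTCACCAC
EGR1: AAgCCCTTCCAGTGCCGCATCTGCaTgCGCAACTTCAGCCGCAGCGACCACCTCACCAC
They matched at 56 of 59 positions, with 32 identical bases in a row. All 8 EGR4 clusters held at least 20 bases in a row that also occur in EGR1 clusters, and the site carried 92.2% as many reads as EGR4 had gene counts under arsenite. EGR4 had 1.39 counts per 100 EGR1 counts over the arsenite libraries and 1.1 over the other 12, and between 0.524 and 1.57 in every library. Over the same libraries EGR2 went from 0.974 to 3.79, EGR3 from 2.49 to 9.43 and NAB2 from 5.88 to 0.516 counts per 100 EGR1 counts. EGR4 clusters with 97.3% of its reads also held at least 20 bases in a row that occur in EGR3 clusters. EGR3 clusters that shared such a stretch with EGR4 held 23.4% of EGR3 reads. The counts of EGR4 are therefore uncertain: which of its reads came from EGR1 or EGR3 RNA was not tested.

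EGR2 and EGR3 shared less with EGR1. Clusters with such a stretch held 35.1% of EGR2 reads and 34.9% of EGR3 reads. Without them, EGR2 had 494 cluster reads over the arsenite libraries, 80 to 216 in each, and 0 in the other 12 libraries. EGR3 had 1298 such reads under arsenite, 264 to 528 in each library, 31 in DMSO, all in 1 library, and 0 in PBS and tunicamycin.

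**Figure D5:**
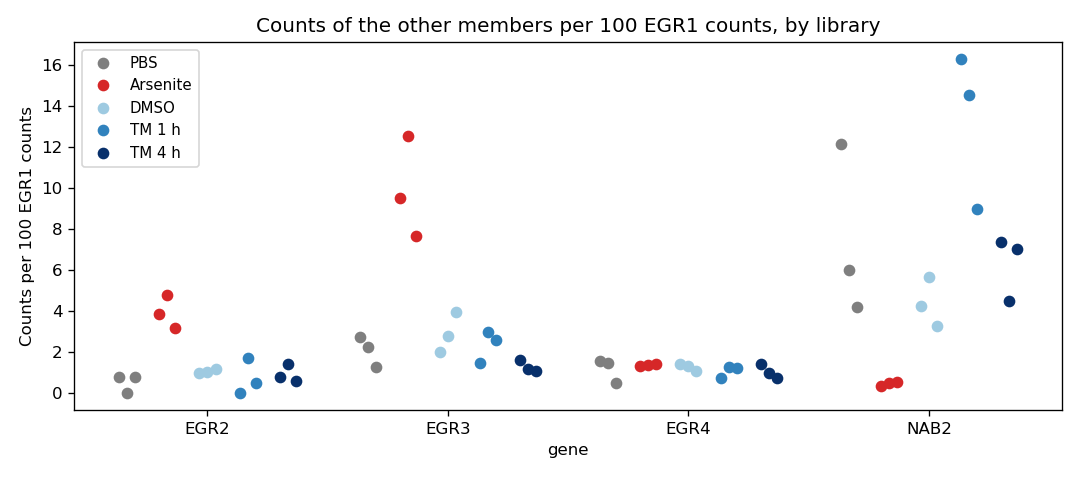
Counts of EGR2, EGR3, EGR4 and NAB2 per 100 EGR1 counts in each of the 15 anti-IGF2BP3 libraries, coloured by condition. EGR2 and EGR3 stand higher in arsenite, EGR4 lies between 0.524 and 1.57 in all libraries, and NAB2 falls to between 0.363 and 0.570 in arsenite.

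Genes of the pathway were followed through reads in clusters, summed per RefSeq protein-coding gene, because rows of the count table could not be paired with symbols. Of the 17 genes listed for ERK and SRF control of EGR transcription (kinases, ELK and SRF factors, and CREB), 1 of 10 tested rose under arsenite and 0 fell, where 8.81% of 2689 genes were called higher and 2.98% lower. That gene was BRAF, a kinase upstream of ERK, named after its values were seen, with 10, 17 and 49 reads under arsenite and 0 in each PBS library, so it too passed the filter through arsenite alone; the call was lost when any library but PBS replicate 2 was left out. The median log2 fold change of the tested members was 0.51 against 0.32 over all genes. Of 13 NAB corepressor partners, 0 of 6 tested were called by edgeR, 1 had an unadjusted p under 0.05, and DESeq2 called 1, where 666 of all 2689 genes had such a p and DESeq2 called 571. Of 11 known EGR1 targets, 0 of 2 tested were called by edgeR under arsenite, with 1 at an unadjusted p under 0.05 and 1 called by DESeq2. At TM 1 h and TM 4 h, neither edgeR nor DESeq2 called any of the 13, 9 and 5 tested genes of these 3 lists, and 1 gene, of the ERK and SRF list at TM 4 h, had an unadjusted p under 0.05.

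Among other immediate early genes, which share stimuli with the EGR genes, under arsenite 12 of 17 tested were called higher and 0 lower, with a median log2 fold change of 2.68 against 0.32 over all genes. They were FOS, FOSB, JUN and JUNB, subunits of AP-1, with FOSL1, the stress factor ATF3, the phosphatase DUSP1, the mRNA decay factor ZFP36, the nuclear receptor NR4A1, the zinc finger factor KLF10, IER2 and the survival factor MCL1. FOS had 655, 1102 and 1716 cluster reads under arsenite and FOSB 376, 758 and 793, and both had 0 in the 3 PBS libraries. FOS, FOSB, JUN and DUSP1 had no PBS cluster reads in any library and so passed the filter on low counts through arsenite alone, which required them to differ, and JUNB, NR4A1 and ZFP36 had PBS reads in 1 library each; 17 genes of the list were tested here and 13 in the tunicamycin fits. The count and the median are given with that limit and support nothing further. The number called was 7 without PBS replicate 3, 6 without arsenite replicate 1 or 2, and 13 without PBS replicate 2. After 1 h of tunicamycin, 0 of 13 tested were called by edgeR, as were 0 of all 4668 genes (0%); 5 had an unadjusted p under 0.05, against 97 of all genes, and DESeq2 called 1 against 6. Their median was -1.0 against -0.18 over all genes. At TM 4 h 0 of 13 were called by edgeR, 3 had an unadjusted p under 0.05 against 95 of all 4668 genes, DESeq2 called 1 against 31, and the median was -0.33 against 0.02; edgeR called 0.214% of all genes.

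Among the 5 genes whose cluster reads followed EGR1 most closely over the 15 antibody libraries, out of 3990 with a mean of at least 20 CPM, were DUSP2, FOSB, JUN and CLTC, with Pearson r of log2(CPM + 1) of 0.950, 0.945, 0.944 and 0.924. DUSP2 is a phosphatase of MAP kinases and CLTC the clathrin heavy chain. These coefficients rest largely on the arsenite libraries: over the 12 others r was 0.468 for DUSP2, 0.662 for FOSB and 0.419 for CLTC, and JUN had no cluster reads there. By Spearman rank correlation the 5 closest were MIDN, FAM53C, ATF3, KLF10 and UBE2T, and 0 of these were among the 5 by Pearson r. Points share libraries and depth, and no p is given. Among the set itself, r with EGR1 on gene counts was 0.916 for EGR2, 0.970 for EGR3, 0.971 for EGR4 and -0.460 for NAB2, and 0.562, 0.732, 0.783 and -0.272 without arsenite.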

How the data were processed

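The members and all gene lists were chosen with earlier results of these data known. Per the submitters' processing notes, the tools were bcl2fastq 2.20.0.422, UMI-tools 1.1.1, Trimmomatic 0.30, Bowtie 0.12.7 and featureCounts 2.0.1, with builds GRCh38.p13 and hg38; roles, order, the treatment of multi-mapped reads and the cluster caller are not given in the sources used here. The authors deposited raw counts per gene for all 20 libraries and, per library, clusters with read counts and conversion counts. Clusters had at least 2 reads and 2 conversion positions. All 518 clusters inside RefSeq promoter windows (GRCh38.p14) had identical sequence there, so coordinates were used as given.

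The test of gene counts was the quasi-likelihood test of edgeR 4.0.16 under R 4.3.3 (filterByExpr, TMM factors, Benjamini-Hochberg adjustment over all genes tested, threshold 0.05), using 9 libraries for the tunicamycin comparisons and 6 for each other one; SE is the fold change over the root of F. DESeq2 1.42.0 was an alternative. Identifiers in the count table could not be paired with symbols for other genes, so lists and likeness used cluster reads on RefSeq protein-coding genes (84.1% of cluster reads lay on 1 such gene). Clusters are called above a minimum in each library, and the median log2 fold change over all genes was 0.32 for arsenite in that table. Named genes were the 5 members, the 5 with highest r with EGR1, per list and comparison up to 2 largest rises and falls among called genes with a mean of at least 20 reads, and up to 2 sites per member; 1 of the genes with highest r is not reported here. Same-numbered libraries were checked for shared deviations, and the fits were tested on simulated data. IgG cluster lists of the PBS and arsenite set carry reversed names and were not used. The authors' conversion counts were summed to percentages. Intervals at 95% cover counting error only.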

Additional observations from a re-analysis of the deposited data

Results flagged for a closer look

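The 4 EGR genes moved in opposite directions under the 2 stresses, with every TM 1 h library below every DMSO library and every arsenite library above every PBS library. The log2 fold changes were -1.19 at TM 1 h and 3.79 under arsenite for EGR1, -1.87 and 6.32 for EGR2, -1.56 and 6.11 for EGR3, and -1.15 and 4.19 for EGR4. The difference between the 2 comparisons was not tested, EGR1 was chosen for this pattern, and EGR4 reads lie in a stretch nearly identical to EGR1. Stress, time of treatment, vehicle and library set differ between the 2 comparisons and cannot be told apart. Within the TM 1 h comparison, drug and time also change together, since DMSO was given for 4 h.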

How the results depend on the processing

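Leaving out 1 library at a time, the log2 fold change at TM 4 h against DMSO ran from -0.71 to -0.12 for EGR1, -2.37 to -1.21 for EGR3 and -0.063 to 0.091 for NAB2. For DMSO against PBS it ran from 0.96 to 2.10 for EGR3 and -0.055 to 0.57 for NAB2, for TM 1 h against DMSO from -2.10 to -0.70 for EGR3 and -1.76 to -1.0 for EGR4, and for TM 4 h against TM 1 h from -0.0080 to 0.84 for EGR4. In the same way, chosen after seeing the data, calls under arsenite ran from 6 to 13 for other immediate early genes and from 0 to 1 for ERK and SRF genes. With DESeq2, EGR1 stood at -0.46 for TM 4 h against DMSO and at 0.87 for DMSO against PBS. EGR3 had no DESeq2 adjusted p for TM 4 h against DMSO. DESeq2 called 1 gene among other immediate early genes at TM 1 h, TM 4 h and DMSO against PBS, 1 NAB partner and 1 EGR1 target under arsenite; the last was also 1 with library totals. Using replicates 1 and 2 only gave 0.038 for EGR1 and -0.85 for EGR3 at TM 4 h against DMSO, and 1.23 and 0.39 against TM 1 h. NAB2 changed sign at -0.032 with no filter and -0.0067 with the replicate block. Same-numbered libraries did not deviate together (r from -0.04 to 0.03), and the replicate block changed no call. Clusters of at least 10 reads numbered 24 for EGR2, 42 for EGR3 and 13 for NAB2. The cause of these shifts was not tested. Arsenite values of the EGR genes stayed within 1 SD under every alternative run. Low counts limit EGR2 and EGR4 outside arsenite, EGR3 in PBS, and every IgG library.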
